A study of Mus musculus with 5 samples.

Results

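Natural killer (NK) cells and killer T cells carry granules of pore-forming protein and granzymes, and read the surface of other cells through activating and inhibitory receptors. In injured skeletal muscle such lymphocytes are a minority beside the macrophages that clear dead fibres. The genes described here are 9 of the 18132 genes listed in at least 1 of the study's tables, chosen by name: the granule genes Gzma, Gzmb, Prf1 and Nkg7, the receptor genes Klrd1, Klrb1c, Klrk1 and Ncr1, and the chemokine gene Xcl1. All 9 were listed at days 5 and 7, and 8 at days 0 and 2, where Prf1 was not listed because a table holds only genes with a UMI (a counted mRNA molecule) in at least 3 barcodes.

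The cells came from tibialis anterior muscle of the lower leg. The C57Bl/6 mice were either uninjured (day 0) or had been injected with notexin, which kills muscle fibres, and were sampled at days 2, 5 and 7. The mice were 4 months old and female, except that day 2 came from mice of 7 months and day 7 from males, so day cannot be told apart from age or sex where these differ. Muscle was digested, red cells were lysed, live cells were sorted with the dyes propidium iodide and Calcein-AM, and droplet 3' libraries were counted by UMI. Each day had 1 matrix, with 5176, 4903, 2164 and 5680 labelled cells at days 0, 2, 5 and 7 and 22330278, 57723171, 5986701 and 40427212 UMIs. At day 0 this matrix holds 2 runs without a mark of which cell came from which, so no day had a replicate and no difference between days has a test. Intervals in brackets are 95% intervals (exact Poisson for levels, Clopper-Pearson for shares, exact binomial for ratios) and cover counting error only.

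The authors' cell labels name NK or T cells in 3 places: NK cells at day 5 (264 cells), Macrophages/APCs/T-cells at day 5 (409 cells) and NK/T cells at day 7 (378 cells). Neither day 0 nor day 2 had such a label. The T cell receptor complex genes Cd3d, Cd3e and Cd3g had a UMI in 57.7% of the day 7 NK/T cells, 8.33% of the day 5 NK cells and 72.1% of the Macrophages/APCs/T-cells. In fibro-adipogenic progenitors (FAPs), stromal cells of muscle that should lack them, the share was 3.38% at day 7 and 3.99% at day 5. The Macrophages/APCs/T-cells went against part of their name. Their 10 macrophage markers summed to 308 counts per 1000000 UMIs (cpm), against 12413 cpm in the Macrophages/APCs of day 2, another library. Within day 5, 2.93% of them had UMIs of 2 or more of the macrophage genes Lyz2, C1qa, C1qb and Csf1r. In the Anti-inflammatory macrophages of day 5 this was 73.6%, at a median depth of 2532 UMIs against 1357. The labels called B cells at days 2 and 5 also went against their name: the B cell receptor gene Cd79a had 0 UMIs in their 169 and 29 cells, and they carried the dendritic cell gene Flt3 at 116 and 338 cpm. None of 6 gamma delta T cell markers was listed at any day, so that lineage was not examined. Between 9 and 40 cell barcodes were shared by any 2 days, at most 0.816% of the smaller matrix. Labels were drawn from these cells' own expression, so a level in a label is a description and not a test.

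Gzma and Gzmb encode granzymes, the serine proteases of the killing granule. Prf1 encodes perforin, which forms the pore through which granzymes enter a target, and Nkg7 a membrane protein of the same granules. Klrd1 encodes CD94, which pairs with NKG2 chains. Klrk1 encodes NKG2D, an activating receptor for stress-induced ligands. Klrb1c carries the NK1.1 epitope of C57Bl/6 mice, Ncr1 encodes NKp46, and Xcl1 encodes lymphotactin, which attracts dendritic cells that bear the receptor Xcr1. In the GENCODE annotation of the build GRCm38, Gzma lies at chr13:113093825-113100981 (minus strand), Gzmb at chr14:56258838-56262260 (minus), Prf1 at chr10:61297833-61304680 (plus), Nkg7 at chr7:43437073-43438249 (plus) and Ncr1 at chr7:4337724-4345164 (plus). Xcl1 lies at chr1:164931644-164935527 (minus) and is overlapped by a non-coding transcript on the opposite strand. The 3 lectin-like receptor genes share chromosome 6: Klrb1c at chr6:128778485-128789215 (minus), Klrd1 at chr6:129591782-129598775 (plus) and Klrk1 at chr6:129610323-129623864 (minus). Klrd1 and Klrk1 are separated by 11.5 kb, and Klrb1c lies 803 kb from Klrd1. Klrb1c is overlapped by a second annotated gene model on its own strand, and how reads shared by both were counted is not given in the sources used here.

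RefSeq promoters (GRCm38.p6) were matched for 8 of the 9 genes, all but Klrd1. The 250 bases before the start of 4 of them are printed because these genes stand for the granule (Gzma, Nkg7), the NK receptor that T cells mostly lack (Ncr1) and the receptor that was also found in antigen-presenting labels (Klrk1). Capitals mark the letters TGTGGT or, on the opposite strand, ACCACA, the core that RUNX factors bind.
Gzma, chr13:113100982-113101231, minus strand: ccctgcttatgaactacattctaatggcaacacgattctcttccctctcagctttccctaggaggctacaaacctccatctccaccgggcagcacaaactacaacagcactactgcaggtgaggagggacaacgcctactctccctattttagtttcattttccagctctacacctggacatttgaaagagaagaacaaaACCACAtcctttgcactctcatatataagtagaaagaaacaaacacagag
Nkg7, chr7:43436888-43437137, plus strand: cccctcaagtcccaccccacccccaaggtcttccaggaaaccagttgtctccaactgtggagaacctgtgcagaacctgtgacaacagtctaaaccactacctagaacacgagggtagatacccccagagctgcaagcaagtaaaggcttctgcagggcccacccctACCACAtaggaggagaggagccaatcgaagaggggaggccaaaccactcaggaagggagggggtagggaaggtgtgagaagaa
Ncr1, chr7:4337465-4337714, plus strand: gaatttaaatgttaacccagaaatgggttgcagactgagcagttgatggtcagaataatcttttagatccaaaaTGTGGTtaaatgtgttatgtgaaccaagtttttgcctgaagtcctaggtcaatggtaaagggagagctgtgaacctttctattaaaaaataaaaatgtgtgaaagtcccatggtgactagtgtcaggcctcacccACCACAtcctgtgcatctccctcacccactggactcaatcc
Klrk1, chr6:129623865-129624114, minus strand: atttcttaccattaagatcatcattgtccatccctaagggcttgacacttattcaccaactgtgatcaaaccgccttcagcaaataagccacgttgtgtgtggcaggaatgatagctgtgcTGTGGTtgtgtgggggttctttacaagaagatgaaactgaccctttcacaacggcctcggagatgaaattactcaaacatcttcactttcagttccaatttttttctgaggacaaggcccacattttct
On either strand these 6 letters stood in the 250 bases of all 8 matched genes, and in 14.2% of the 27025 genes with a promoter in the table. Their first base lay 50 bases before the start in Gzma, 83 in Nkg7, 176 and 41 in Ncr1 and 129 in Klrk1. The T-box core GGTGTG (or CACACC) stood in 2 of the 8, Nkg7 and Xcl1, against 16.2% of all genes. The start used here is that of RefSeq, which differs from the GENCODE start for some genes. The Nkg7 window ends at base 43437137, past the GENCODE start at 43437073. The Klrb1c window (chr6:128788642-128788891) lies inside the GENCODE span of that gene. The motifs were chosen with the sequences in view, and a match in such a window is a description, not a binding site.

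Over whole days the cytotoxic genes were low in uninjured muscle, mostly lower still at day 2, far higher at day 5 and intermediate at day 7. Over all labelled cells, at days 0, 2, 5 and 7, the granzyme gene Gzma stood at 18.9 cpm (17.2 to 20.8), 4.54 (4.01 to 5.12), 465 (448 to 482) and 120 (117 to 123). The chemokine gene Xcl1 stood at 2.96 cpm (2.29 to 3.76), 0.762 (0.554 to 1.02), 178 (167 to 189) and 55.9 (53.6 to 58.3). Both were lowest at day 2 and highest at day 5, and the intervals of the 4 days did not overlap. The granule gene Nkg7 followed the same order, at 16.3, 4.42, 319 and 125 cpm. Gzmb stood at 3.49 cpm (2.76 to 4.36), 0.554 (0.379 to 0.783), 26.7 (22.7 to 31.2) and 24.2 (22.7 to 25.7), so days 5 and 7 overlapped. The activating receptor gene Klrk1 (5.11, 8.85, 36.4 and 36.1 cpm) and Ncr1 (0.985, 0.173, 7.85 and 7.69 cpm) also had overlapping intervals at days 5 and 7. Klrk1 and Klrd1 were higher at day 2 than at day 0, with intervals that did not overlap. Klrd1 had 24.9 cpm (23.6 to 26.2) at day 2, against 5.46 (4.54 to 6.52) in uninjured muscle, and Klrk1 8.85 (8.10 to 9.65), against 5.11 (4.21 to 6.13). The later levels of Klrd1 were 83.2 cpm (76.0 to 90.8) at day 5 and 51.2 (49.0 to 53.5) at day 7. Klrb1c stood at 1.25, 1.40, 23.6 and 8.81 cpm, with overlapping intervals at days 0 and 2. Prf1 had 5 UMIs at day 5 and 23 at day 7.

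Against day 0, with a call set at 2-fold and at least 20 UMIs over both days, 5 of the 8 listed members were lower at day 2 (Gzma, Gzmb, Nkg7, Ncr1 and Xcl1) and 1 was higher, Klrd1. Of all 14891 genes tested there, 34.0% were lower and 12.7% higher. Klrd1 had a log2 ratio of 2.19 (1.92 to 2.46), and Gzma one of -2.06 (-2.29 to -1.84). At day 5 all 8 were higher, beside 13.6% of all genes, and 0 lower, beside 15.8%, with a median log2 ratio of 4.08 against -0.11 over all genes tested. At day 7 all 8 were higher again, beside 12.8% of all genes, and 0 lower, beside 17.2%, with a median of 2.88 against -0.21. These comparisons share the day 0 cells. In such sums, fewer cells of a type and less RNA per cell cannot be told apart. The labels with NK or T in their name held 12.2% (NK cells) and 18.9% (Macrophages/APCs/T-cells) of the day 5 cells and 6.65% (NK/T cells) of the day 7 cells.

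The labels divided these UMIs unevenly. At day 0 the single Immune label (297 cells, 5.74% of cells) held 95.3% of the cytotoxic UMIs. At day 2 the Macrophages/APCs held 63.4%, in the main through Klrd1. At day 5 the NK cells held 63.2% and the Macrophages/APCs/T-cells 29.5%, and at day 7 the NK/T cells held 83.7%. Summed over the 9 genes, the level was 6636 cpm (6529 to 6745) in the day 7 NK/T cells, 9711 (9423 to 10005) in the day 5 NK cells and 2710 (2593 to 2831) in the Macrophages/APCs/T-cells.

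**Figure D1:**
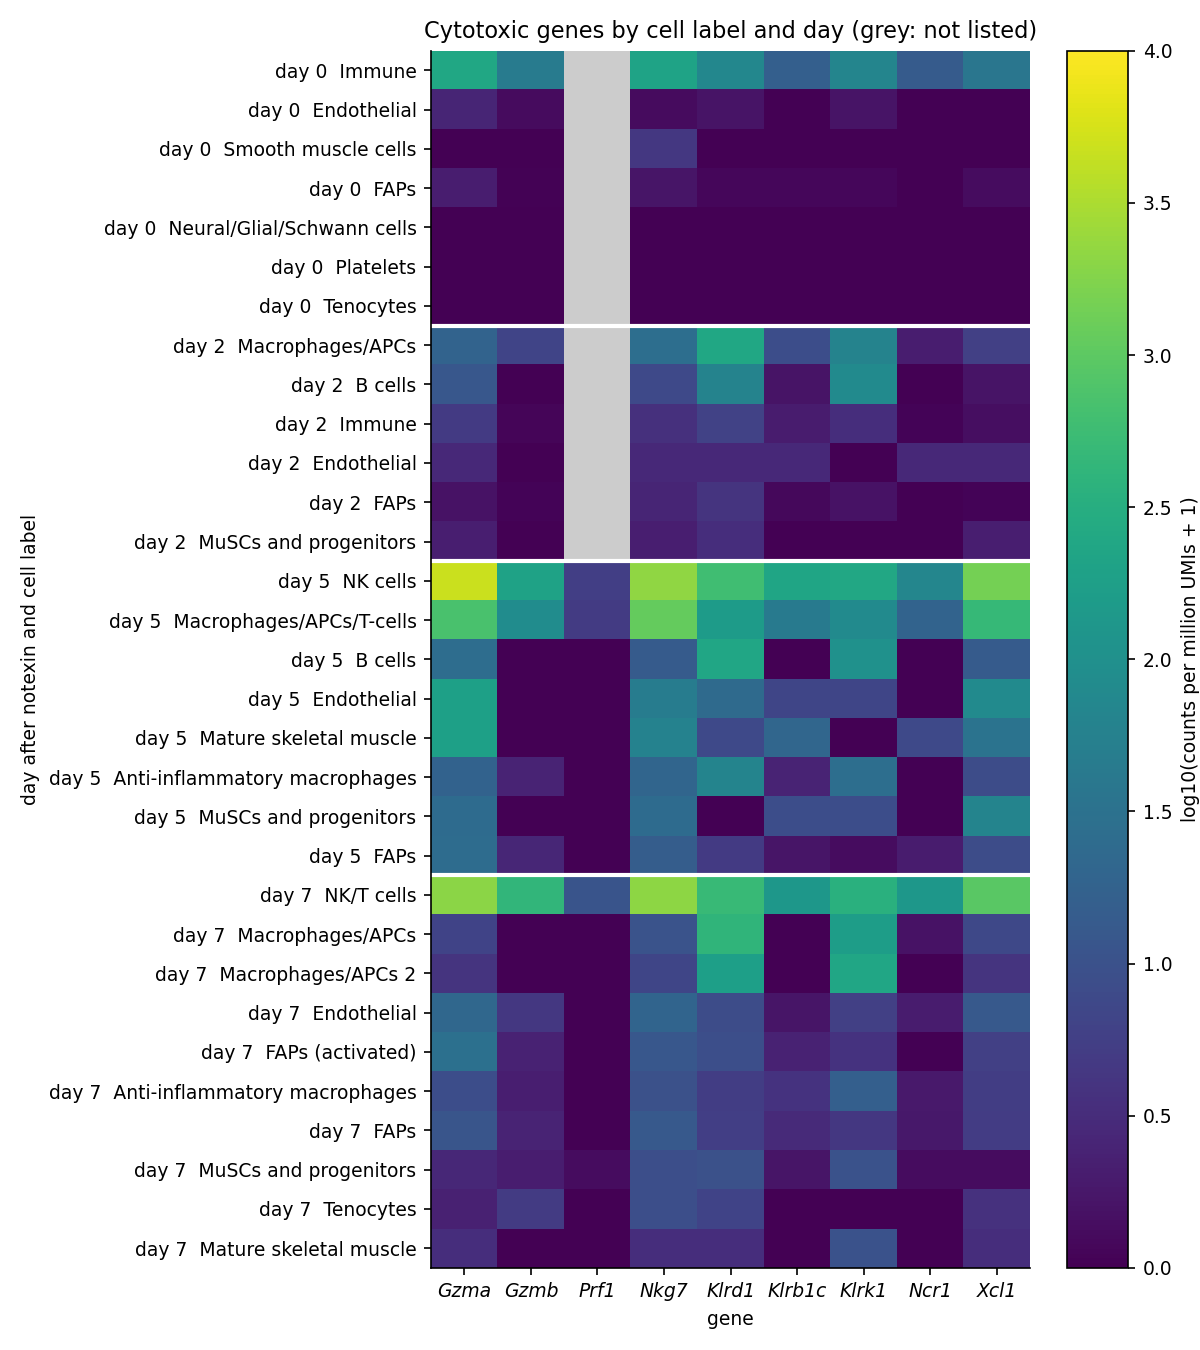
Level of each gene (columns) in every cell label and day (rows), as log10 of counts per 1000000 UMIs plus 1, with genes that a day's table does not list in grey. The labels with NK or T in their name are brightest across the row at days 5 and 7, while the Macrophages/APCs labels of days 2 and 7 are bright mainly for Klrd1 and Klrk1, with 406 cpm of Klrd1 at day 7 beside 5.40 cpm of Gzma.

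Against all other cells of the same day, the NK cells of day 5 were at least 2-fold higher for 8 of the 8 members with enough UMIs, beside 9.38% of all genes, with 0 of 8 lower beside 30.7%, and the NK/T cells of day 7 for 9 of 9, beside 13.6%, with 0 of 9 lower beside 30.6%. As the labels rest on such genes, these counts describe the labels and support nothing more. Within each day the NK label ranked first for all 9 genes. At day 5 the NK cells had 4715 cpm of Gzma (4515 to 4921), against 708 (649 to 771) in the next label, the Macrophages/APCs/T-cells. Nkg7 stood closer, at 2189 cpm (2054 to 2332) in the NK cells and 1140 (1065 to 1220) in the Macrophages/APCs/T-cells. Xcl1 stood at 1471 cpm (1360 to 1588) in the NK cells and 473 (424 to 525) in the Macrophages/APCs/T-cells, and Klrb1c at 225 (183 to 274) and 43.1 (29.5 to 60.8). For Prf1 (2 UMIs in the NK cells) and Klrk1 the interval of the NK cells overlapped that of the next label. For the other 7 genes it did not.

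At day 7 the step from the NK/T cells to the next label was far steeper for most genes. Gzmb stood at 421 cpm (394 to 449) in the NK/T cells, against 4.03 (0.832 to 11.8) in tenocytes, the cells of tendon. Ncr1 stood at 129 cpm (114 to 145) in the NK/T cells and 1.02 (0.211 to 2.99) in endothelial cells. Prf1 stood at 10.0 cpm (6.29 to 15.2) in the NK/T cells, with 1 further UMI in all other labels together. The 2 exceptions were Klrd1, at 489 cpm (460 to 519) in the NK/T cells and 406 (377 to 436) in the Macrophages/APCs, and Klrk1, at 346 (322 to 372) in the NK/T cells and 233 (184 to 290) in the Macrophages/APCs 2. No interval of the NK/T cells overlapped that of the next label for any of the 9 genes.

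Shares of cells were compared after thinning every cell to 1000 UMIs, because the median cell of the NK labels held 3946.5 UMIs at day 7 and 1561.5 at day 5. No cell of these labels had to be left out. FAPs served as the background, with median depths of 7669 UMIs at day 7 and 2785 at day 5. Gzma had a UMI in 35.4% (30.6 to 40.5) of the day 7 NK/T cells and 0.716% (0.358 to 1.28) of the day 7 FAPs. At day 5 the share was 76.9% (71.3 to 81.8) in the NK cells and 9.05% (6.45 to 12.3) in the Macrophages/APCs/T-cells, over 2.17% (1.29 to 3.41) in FAPs. Nkg7 was found in 80.7% (76.3 to 84.5) of the day 7 NK/T cells, 82.6% (77.5 to 87.0) of the day 5 NK cells and 47.7% (42.7 to 52.6) of the Macrophages/APCs/T-cells, over 0.976% of day 7 and 0.604% of day 5 FAPs. Unthinned shares of Nkg7 were 93.4%, 91.3% and 55.5% in the same labels.

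Gzmb was found in 22.0% (17.9 to 26.5) of the day 7 NK/T cells and 12.9% (9.09 to 17.5) of the day 5 NK cells, and Ncr1 in 14.6% (11.2 to 18.5) and 6.06% (3.50 to 9.66). Klrb1c ran the other way, at 13.5% (10.2 to 17.4) at day 7 and 22.3% (17.5 to 27.9) at day 5. At this depth the intervals of the days did not overlap for Gzmb, Ncr1 or Klrb1c. Klrd1 (40.2% and 37.5%) and Klrk1 (31.5% and 24.6%) had overlapping intervals at days 7 and 5. Perforin mRNA was scarce everywhere: 4 of 378 day 7 NK/T cells, 1 of 409 Macrophages/APCs/T-cells and 0 of 264 day 5 NK cells had a UMI, and the last count allows a share of up to 1.14%. This is a limit on cells with a UMI at this depth, not on cells that make perforin. At 500 UMIs the intervals of days 7 and 5 overlapped for Ncr1 and Klrb1c, and those of Gzmb stayed apart. In unthinned cells the order of Klrb1c turned, with the larger share at day 7 and overlapping intervals.

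**Figure D2:**
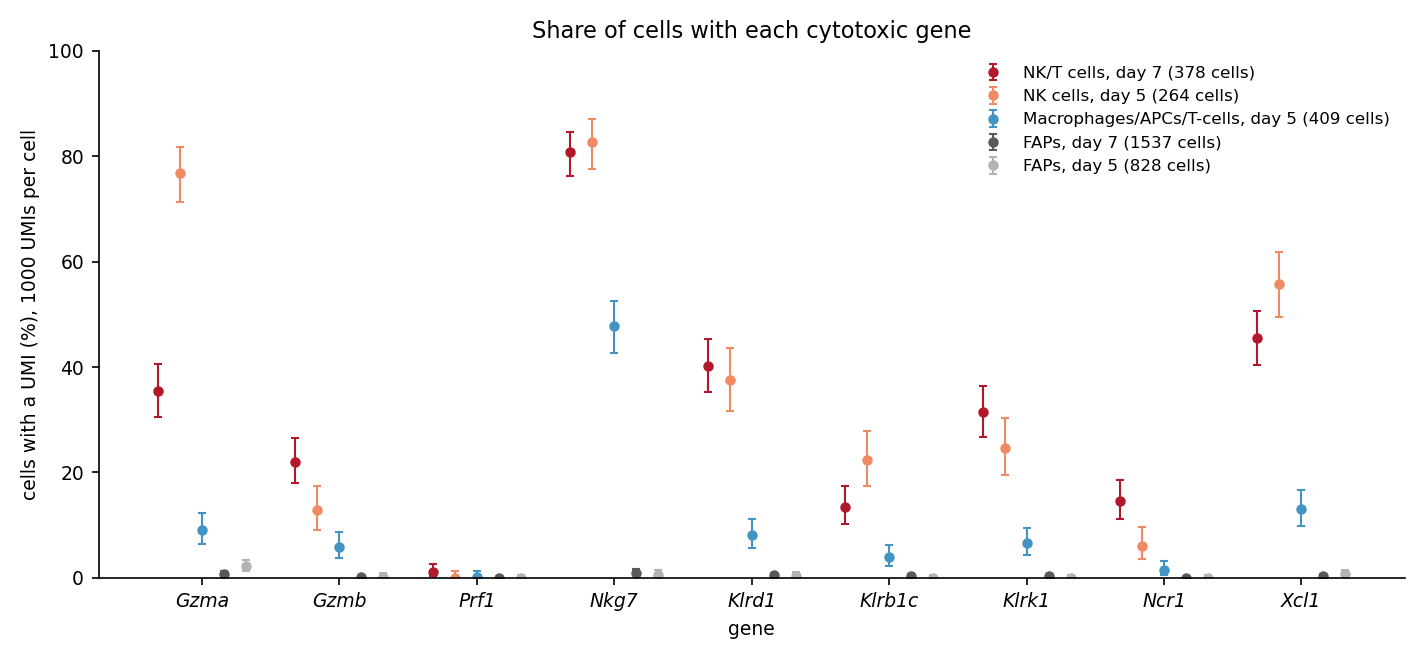
Share of cells with at least 1 UMI of each gene after thinning to 1000 UMIs per cell, in the 3 labels with NK or T in their name and in FAPs of days 7 and 5, with exact 95% intervals as bars. Gzma falls between 30.6% and 40.5% of day 7 NK/T cells and between 71.3% and 81.8% of day 5 NK cells, while Nkg7 is at 80.7% and 82.6% in these labels and FAPs stay at or under 2.17%.

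Several of the genes were found together in the same cells. At 1000 UMIs, 53.2% (48.0 to 58.3) of the day 7 NK/T cells, 72.7% (66.9 to 78.0) of the day 5 NK cells and 8.56% (6.03 to 11.7) of the Macrophages/APCs/T-cells had UMIs of 3 or more members. In FAPs this was 0.195% (0.0403 to 0.569) at day 7 and 0 of 828 cells at day 5, which allows up to 0.362%. At least 5 members were found in 22.5% (18.4 to 27.0) of the day 7 NK/T cells and 15.2% (11.1 to 20.1) of the day 5 NK cells, so the order of the days turned between 3 and 5 members, the second time with overlapping intervals. For at least 5 members the intervals also overlapped at 500 UMIs (7.41% and 3.41%). They did not overlap in unthinned cells, at 50.8% (45.6 to 55.9) and 32.2% (26.6 to 38.2). At least 1 member was found in 89.2% (85.6 to 92.1) of the day 7 NK/T cells, 97.7% (95.1 to 99.2) of the day 5 NK cells and 58.9% (54.0 to 63.7) of the Macrophages/APCs/T-cells.

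Uninjured muscle and day 2 had no NK label, and co-detection shows what their immune labels held. Of the 297 Immune cells of day 0, 13 had 3 or more members and 9 had 5 or more, at 1000 UMIs. Before thinning, 16 of these 297 cells carried all 400 Gzma UMIs of the label, 70 of them in 1 cell, and 13 cells carried its 22 UMIs of Ncr1. Of the 3405 Immune cells of day 2, 1 had 3 or more members after thinning, a share of 0.0294% (0.000744 to 0.164). One day 2 cell held 66 of the 153 Gzma UMIs of that label. Of the 546 Macrophages/APCs of day 2, 3 had 3 or more members (0.549%, 0.113 to 1.60) and 1 had 5 or more.

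Gzma went with Klrd1 and Klrb1c differently in the 2 NK labels, and the other receptor genes are given for day 7 only. In the day 7 NK/T cells, cells with a Gzma UMI more often held each receptor gene. Klrd1 was found in 58.2% (49.4 to 66.7) of the cells with Gzma and 30.3% (24.6 to 36.5) of those without, Klrb1c in 29.1% (21.6 to 37.6) and 4.92% (2.57 to 8.43), Klrk1 in 67 of 134 cells and 21.3% (16.3 to 27.0), and Ncr1 in 25.4% (18.3 to 33.6) and 8.61% (5.41 to 12.9). In the day 5 NK cells the shares with and without Gzma lay close: 37.4% (30.8 to 44.5) and 37.7% (25.6 to 51.0) for Klrd1, 23.6% (18.0 to 30.1) and 18.0% (9.36 to 30.0) for Klrb1c, and 55.2% (48.1 to 62.1) and 57.4% (44.1 to 70.0) for Xcl1. Intervals of this width, from 203 and 61 cells, do not show the shares to be equal. The other granzyme stood out there: Gzmb was found in 16.3% (11.5 to 22.1) of the day 5 NK cells with Gzma and in 1 of the 61 without, 1.64% (0.0415 to 8.80).

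T cells within the mixed labels were told by a UMI of Cd3d, Cd3e or Cd3g. In the day 7 NK/T cells Gzma and the receptor genes followed this split. Gzma was found in 62.0% (54.7 to 69.0) of the 187 cells without Cd3 and 9.42% (5.68 to 14.5) of the 191 with it. Ncr1 stood at 27.8% (21.5 to 34.8) without Cd3 and 1.57% (0.325 to 4.52) with it, and Klrb1c at 25.7% (19.6 to 32.6) and 1.57% (0.325 to 4.52). Klrd1 (55.1% and 25.7%), Klrk1 (46.5% and 16.8%) and Xcl1 (65.2% and 26.2%) were also more frequent without Cd3, but remained in 16.8% or more of the cells with it. Nkg7 was frequent on both sides, at 89.8% (84.6 to 93.8) without Cd3 and 71.7% (64.8 to 78.0) with it. Gzmb had overlapping intervals, 27.3% (21.0 to 34.3) without and 16.8% (11.8 to 22.8) with Cd3.

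The summed levels were also higher without Cd3 on the scale of UMIs, with Cd3 read from the full depth. In the 160 day 7 NK/T cells without Cd3, Gzma stood at 4644 cpm (4487 to 4804), against 769 (725 to 815) in the 218 cells with it, a ratio of 6.04 (5.64 to 6.46). For Ncr1 the levels were 353 cpm (311 to 399) without and 20.3 (13.7 to 29.0) with Cd3, a ratio of 17.4 (11.9 to 26.3), and for Klrb1c 347 cpm (249 UMIs) without and 34 UMIs with Cd3, a ratio of 15.1 (10.5 to 22.3). For Gzmb the ratio was 1.47 (1.29 to 1.68) and for Nkg7 1.73 (1.63 to 1.83). The granzyme B and Nkg7 mRNA of this label was shared more evenly between cells with and without T cell receptor genes than that of Gzma, Ncr1 or Klrb1c.

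The splits of cells by coreceptor, proliferation and dendritic genes that follow were added after the values were seen. Among the T cell coreceptors, Cd8a or Cd8b1 had a UMI in 75 of the day 7 NK/T cells at 1000 UMIs. Nkg7 was found in 89.3% (80.1 to 95.3) of these 75 cells and Gzmb in 18.7% (10.6 to 29.3), while Ncr1 and Klrb1c were found in 0, which allows up to 4.00% each. At day 5, 71 Macrophages/APCs/T-cells had Cd8a or Cd8b1. Nkg7 was found in 84.5% (74.0 to 92.0) of those and 39.9% (34.7 to 45.4) of the other 338. At 500 UMIs the intervals of Nkg7 for this split overlapped (54.3% and 32.9%). At 1000 UMIs Gzma was found in 5.63% (1.56 to 13.8) and 9.76% (6.82 to 13.4). Cd4 was too rare for a comparison, with 12 cells at day 7 and 24 at day 5. Of the 12, 5 had Nkg7 and 0 had any other member. In the Macrophages/APCs/T-cells as a whole, Gzma was found in 18.2% (12.2 to 25.5) of the cells without Cd3 and 4.14% (2.08 to 7.28) of those with it, and Nkg7 in 43.4% (35.1 to 51.9) of the 143 without and in 133 of the 266 with Cd3. At 500 UMIs the intervals of Gzma for this split overlapped (9.82% and 3.24%). Unthinned, they stayed apart (21.1% and 7.80%). Unthinned shares of Nkg7 were 43.0% (33.7 to 52.6) without and 60.3% (54.5 to 66.0) with Cd3, with intervals that did not overlap.

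**Figure D3:**
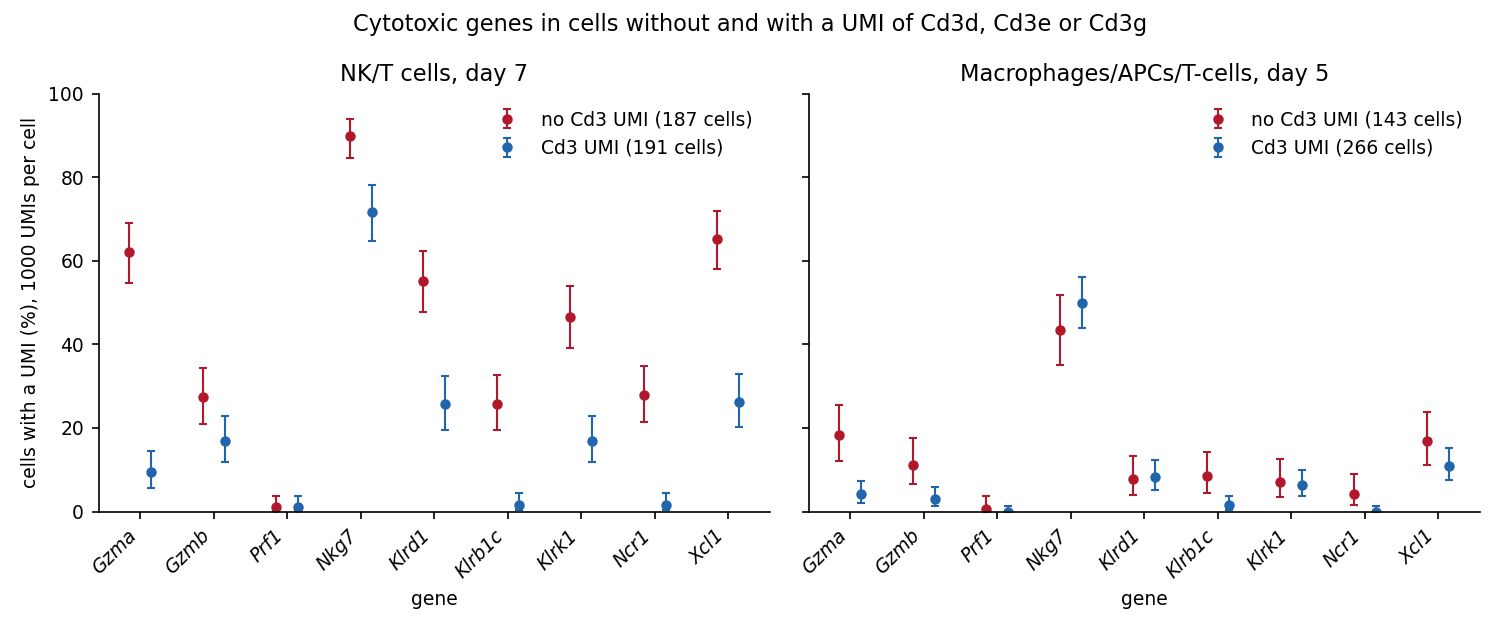
Share of cells with a UMI of each gene, at 1000 UMIs per cell, in cells without (red) and with (blue) a UMI of Cd3d, Cd3e or Cd3g, for the day 7 NK/T cells and the day 5 Macrophages/APCs/T-cells, with exact 95% intervals as bars. In the day 7 panel Gzma, Klrb1c and Ncr1 drop to 9.42%, 1.57% and 1.57% in cells with Cd3 while Nkg7 stays at 71.7%. In the day 5 panel the bars of Nkg7 overlap at this depth, but not in unthinned cells.

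Cells in division were read from a UMI of Mki67, Top2a or Birc5, proliferation genes. In the Macrophages/APCs/T-cells, 51 cells had one, and Gzma was found in 33.3% (20.8 to 47.9) of them and 5.59% (3.45 to 8.50) of the other 358. Gzmb stood at 21.6% (11.3 to 35.3) and 3.63% (1.95 to 6.13) there. The NK receptor genes Klrb1c (17.6%, 8.40 to 30.9, and 1.96%, 0.790 to 3.99) and Ncr1 (9.80%, 3.26 to 21.4, and 0.279%, 0.00707 to 1.55) were also more frequent in these 51 cells. So were Xcl1 (31.4% and 10.3%) and Nkg7 (76.5% and 43.6%), with intervals apart. Those of Klrd1, Klrk1 and Prf1 overlapped. In the day 7 NK/T cells, with 91 such cells, Gzma was found in 30.8% (21.5 to 41.3) and 36.9% (31.3 to 42.8), and Xcl1 in 28.6% (19.6 to 39.0) and 50.9% (44.9 to 56.8). At 500 UMIs the intervals of Gzma (30.8% and 4.32%) and Xcl1 (28.2% and 6.22%) in the Macrophages/APCs/T-cells stayed apart. Those of Gzmb (7.69% and 2.43%), Ncr1 (5.13% and 0.270%) and Nkg7 (41.0% and 34.1%) there overlapped. Klrb1c was found in 0 cells of that label at 500 UMIs. The intervals of Xcl1 at day 7 (19.3% and 34.3%) overlapped too. The 10 cycling markers summed to 2366 cpm in the day 7 NK/T cells, 369 in the day 5 NK cells and 1472 in the Macrophages/APCs/T-cells.

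The 2 NK labels were set against each other to see how the members differed between days 7 and 5, where day cannot be told apart from sex. Over all cells of the labels, Gzma was 2036 cpm (1976 to 2096) in the day 7 NK/T cells and 4715 (4515 to 4921) in the day 5 NK cells, a log2 ratio of -1.21 (-1.29 to -1.14). Gzmb was 421 cpm and 198 (159 to 244), a log2 ratio of 1.09 (0.77 to 1.42). Prf1 had 22 and 2 UMIs and a ratio of 1.16 whose interval, -0.87 to 4.29, holds 0. With Gzmb and Prf1 at least 2-fold higher and Gzma lower, 2 of 9 members passed the 2-fold call upward and 1 downward, beside 26.9% and 14.5% of the 7693 genes tested. A share near that background is not a result about the members. Their median log2 ratio was -0.04, against 0.28 over all genes tested. Xcl1 stood at -0.63 (-0.76 to -0.50), Klrb1c at -0.80 (-1.14 to -0.46) and Ncr1 at 0.93 (0.39 to 1.53), all short of 2-fold.

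The 2 labels differ in make-up, which moved with these ratios. The T cell markers summed to 2179 cpm in the day 7 NK/T cells and 146 cpm in the day 5 NK cells (9 of 12 listed, 0 and 2 of them at 0). Macrophage markers summed to 1491 and 261 cpm (10 of 10 listed, 0 and 1 at 0), and 38.1% of the day 7 NK/T cells and 3.03% of the day 5 NK cells had UMIs of 2 or more of the macrophage genes Lyz2, C1qa, C1qb and Csf1r. Among FAPs, which should lack them, 50.9% at day 7 and 7.37% at day 5 had 2 or more of these genes, at a higher depth per cell. At 1000 UMIs the share was 4.76% (2.85 to 7.42) in the day 7 NK/T cells and 5.73% (4.62 to 7.01) in day 7 FAPs, and 1.14% (0.235 to 3.28) in the day 5 NK cells and 0.966% (0.418 to 1.89) in day 5 FAPs, with overlapping intervals on both days. Without the cells that had 2 or more of these genes at full depth Gzma was no longer 2-fold lower, and the summed log2 ratio of the 9 genes was -0.31 in place of -0.55. Restricted to cells with no Cd3 UMI, 160 at day 7 and 242 at day 5, the summed ratio changed sign to 0.34. There Gzma stood at 4644 cpm at day 7 and 4726 at day 5, a log2 ratio of -0.03 (-0.11 to 0.06).

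In these cells without Cd3, 3 of the 8 members with at least 20 UMIs (Gzmb, Klrk1 and Ncr1) were at least 2-fold higher at day 7, beside 21.2% of the 5169 genes tested, and 0 were lower, beside 12.4%. Prf1, with 17 and 2 UMIs, fell short of the 20 UMIs and had a log2 ratio of 2.26 (0.19 to 5.42). The median log2 ratio of the 8 was 0.66, against 0.23 over all genes tested. Ncr1 was 353 cpm at day 7 and 71.7 at day 5, or 4.93-fold higher, with a log2 interval of 1.74 to 2.91. Klrk1 was 703 and 250 cpm, a ratio of 1.49 (1.18 to 1.82), and Gzmb 537 and 203 cpm, a ratio of 1.41 (1.06 to 1.77). Klrd1 (0.77, interval 0.56 to 0.99), Klrb1c (0.55, 0.21 to 0.91), Nkg7 (0.41, 0.30 to 0.53) and Xcl1 (0.26, 0.12 to 0.40) were above 0 and short of 2-fold. A cell without a Cd3 UMI is less surely a cell without Cd3 in the shallower day 5 library, and the part of that gap in depth in these ratios was not tested.

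**Figure D4:**
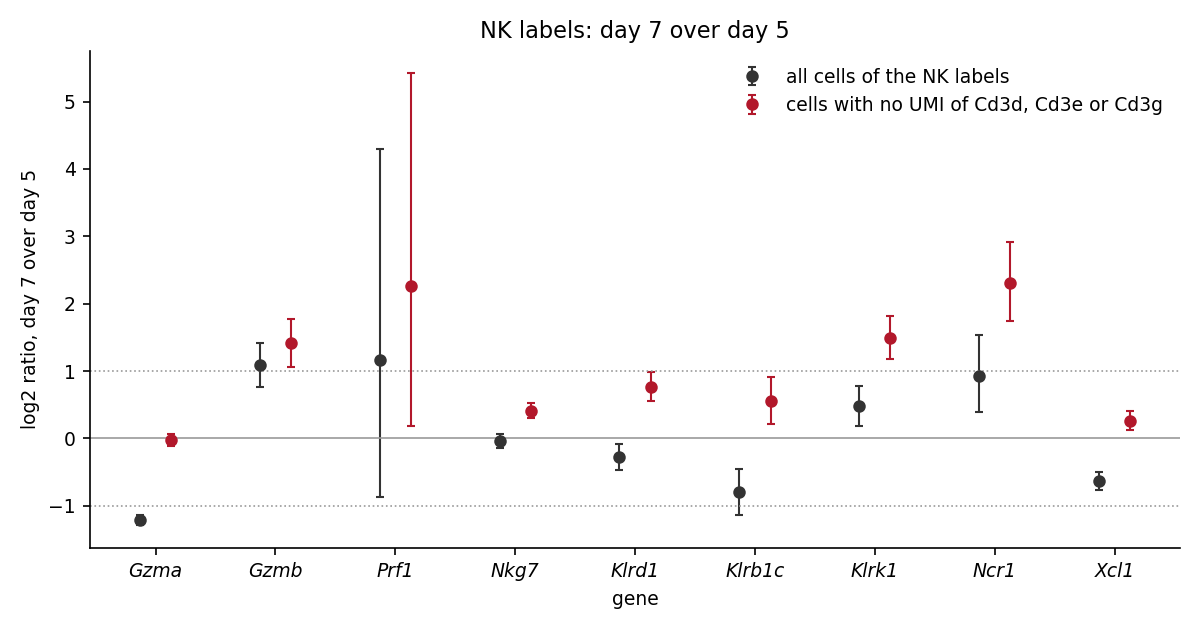
Log2 ratio of each gene in the NK labels, day 7 NK/T cells over day 5 NK cells, for all cells (dark) and for cells with no UMI of Cd3d, Cd3e or Cd3g (red), with exact 95% intervals and dotted lines at 2-fold. Gzma sits at -1.21 for all cells and -0.03 without Cd3, while Gzmb and Klrk1 sit at 1.41 and 1.49 without Cd3 and the bar of Ncr1 spans 1.74 to 2.91.

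Klrd1 and Klrk1 were found well outside the NK and T labels. At day 7 the Macrophages/APCs had 406 cpm of Klrd1 (377 to 436) and 165 of Klrk1 (147 to 185), but 5.40 of Gzma (2.59 to 9.93) and 9.71 of Nkg7 (5.76 to 15.4), with 0 UMIs of Gzmb, Prf1 and Klrb1c. The Macrophages/APCs 2 of day 7 had 179 cpm of Klrd1 (137 to 230) and 233 of Klrk1 (184 to 290). At day 2 the Macrophages/APCs had 237 cpm of Klrd1 (224 to 252), against 5.20 (4.52 to 5.96) in the Immune label. The cells labelled B cells at day 2 had 60.5 cpm of Klrd1 (49.2 to 73.7) and 82.5 of Klrk1 (69.2 to 97.7), the highest Klrk1 of that day. At 1000 UMIs, Klrd1 was found in 27.4% (22.6 to 32.5) of the Macrophages/APCs of day 7 and 21.4% (18.1 to 25.1) of those of day 2, over 0.455% (0.183 to 0.936) and 0.300% (0.0363 to 1.08) of the FAPs of the same days.

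Within the Macrophages/APCs, Klrd1 was more frequent in cells that also held a dendritic cell gene (Flt3, Zbtb46, Xcr1, Clec9a or Cd209a). The shares were 29.8% (24.4 to 35.7) with and 13.5% (9.75 to 18.1) without such a gene at day 2, and 34.5% (26.7 to 42.9) and 21.9% (16.2 to 28.5) at day 7, where the ends of the intervals overlapped. Klrk1 stood at 9.43% (6.20 to 13.6) and 2.49% (1.01 to 5.07) at day 2, and at 15.5% (9.97 to 22.5) and 9.09% (5.39 to 14.2) at day 7, where the intervals overlapped. At 500 UMIs the intervals of Klrk1 overlapped on both days (3.98% and 2.70% at day 2, 7.53% and 7.20% at day 7), as did those of Klrd1 at day 2 (14.2% and 8.65%). Nkg7 was found in 1 of the 265 day 2 cells with a dendritic gene and 0 of the 142 at day 7. These labels summed to 1419 and 1175 cpm for 8 dendritic markers at days 2 and 7, and to 62.8 and 121 cpm for T cell markers. NK markers summed to 47.9 and 15.1 cpm, with 0 and 5 of the listed markers at 0. At 1000 UMIs other labels differed. In the day 2 B cells label, Klrk1 stood at 9.52% (2.66 to 22.6) with and 10.2% (5.56 to 16.9) without a dendritic gene. Klrd1 stood there at 14.3% (5.43 to 28.5) and 3.94% (1.29 to 8.95), with overlapping intervals. In the day 2 Immune label both were more frequent with such a gene (Klrd1 7.81% and 0.389%, Klrk1 7.81% and 0.0898%).

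The make-up of the cytotoxic UMIs separated these labels from those with a low level of every member. Of the cytotoxic UMIs of the Macrophages/APCs of day 7, 68.4% were Klrd1 and 27.8% Klrk1, against 7.36% and 5.22% in the NK/T cells. FAPs of day 5 held 159 UMIs of the 9 genes, of which 46.5% were Gzma, 25.8% Nkg7 and 13.8% Xcl1, beside 48.6%, 22.5% and 15.1% in the NK cells of the same day. A few cells also weighed on the low labels: in the mature skeletal muscle label of day 5, 1 cell held 26 of the 29 Gzma UMIs. Levels of granule genes in non-immune labels are given as they were counted and not read as expression by those cells.

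**Figure D5:**
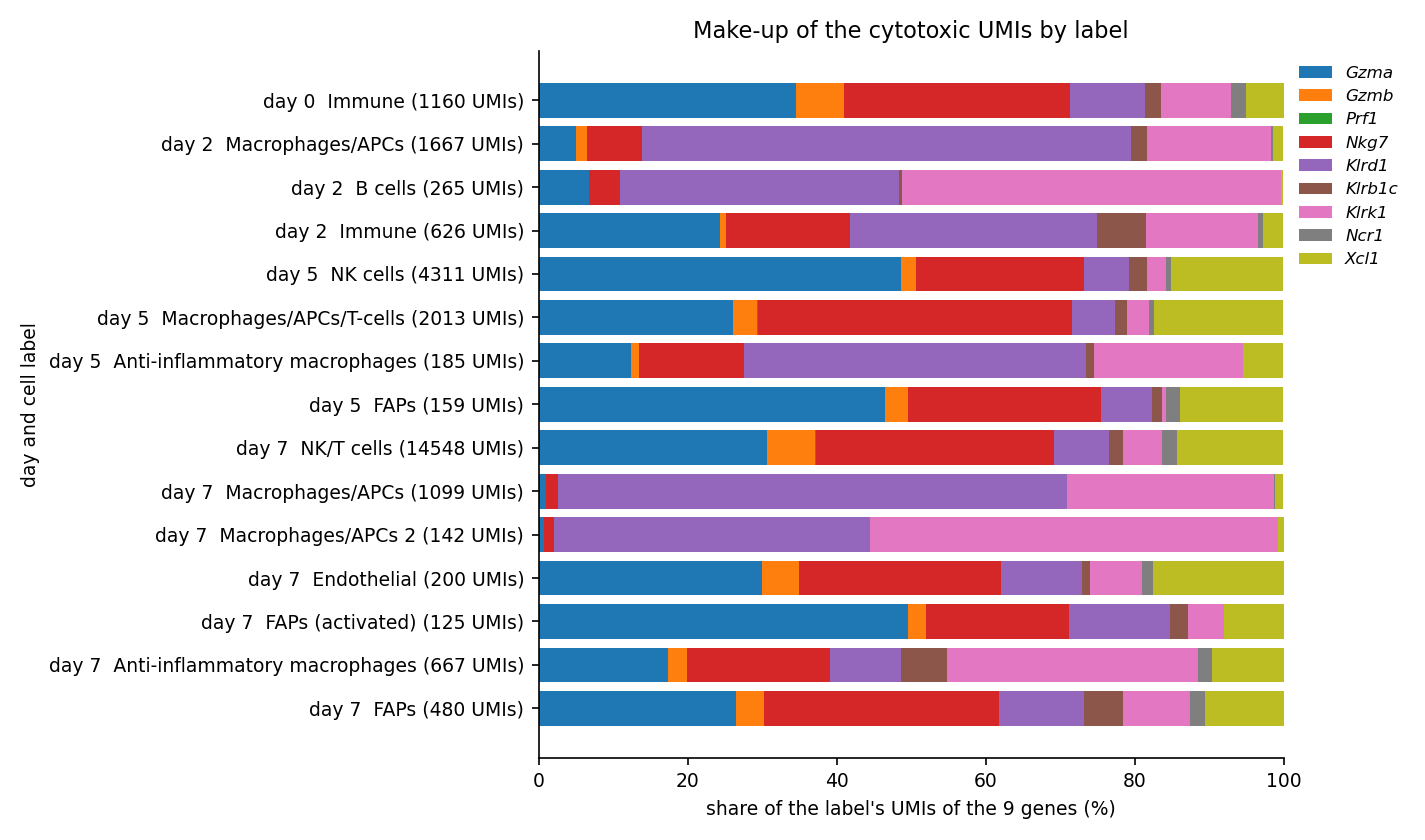
Share of each gene among a label's UMIs of the 9 genes, for labels with at least 100 such UMIs, ordered by day. Klrd1 and Klrk1 fill 68.4% and 27.8% of the bar of the day 7 Macrophages/APCs, while Gzma, Nkg7 and Xcl1 lead in the day 5 NK cells and in the day 5 FAPs.

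The partners of these genes were read from 7 lists that hold 108 further genes. Xcr1, the receptor for Xcl1, was highest in the cells labelled B cells at day 2 (80.1 cpm) and in the Macrophages/APCs at day 7 (77.2 cpm). At day 7 the next label, Macrophages/APCs 2, held 32.8 cpm. Il12b, a subunit of the NK-activating cytokine interleukin 12, stood at 817 cpm in the Macrophages/APCs 2 of day 7 and 16.2 in the next label, and at 611 cpm in the 29 cells labelled B cells at day 5. Ligands of NKG2D were scarce: the day 2 FAPs had 55 UMIs of Raet1e (5.97 cpm), and the day 7 NK/T cells had 11 UMIs of Ulbp1 (5.02 cpm), the highest label for it that day. Clec2d, a ligand of receptors of the Klrb1 family, was highest in endothelial cells at days 2, 5 and 7 (62.9, 255 and 67.1 cpm).

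In the comparison of the NK labels of day 7 with day 5, the other lists were counted in the same way, beside the 26.9% of all genes that were higher and the 14.5% lower. Most of the calls that follow were not made in cells without Cd3, a comparison added after the values were seen. Of the 12 list genes called higher over all cells, 7 were also called in cells without Cd3, 1 was not and 4 had fewer than 20 UMIs there. Of the 23 called lower, 4 were also called without Cd3, 17 were short of 2-fold, 1 had the opposite sign and 1 had fewer than 20 UMIs. Of 14 further granule genes tested, 1 was higher and 3 lower. Gzmk, a granzyme also found in T cells, stood at 73.4 cpm (62.5 to 85.7) at day 7 and 6.76 (1.39 to 19.7) at day 5, but at 6.98 and 7.41 cpm in cells without Cd3. Serpinb9 (114 and 288 cpm) and Serpinb6b (155 and 320 cpm), inhibitors that bind granzymes or related proteases, were lower, as was the lysosomal trafficking gene Lyst (5.93 and 22.5 cpm). In cells without Cd3, Serpinb9 (230 and 292 cpm) and Serpinb6b (318 and 334 cpm) were short of 2-fold. Srgn, the proteoglycan core of the granule, had 1153 and 1286 cpm and the cathepsin gene Ctsw 426 and 329 cpm.

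Of 26 NK receptor and signalling genes tested, 4 were higher and 9 lower. Tyrobp and Hcst, the adaptors DAP12 and DAP10 of activating receptors, stood at 1112 and 456 cpm at day 7 and 2275 and 1097 cpm at day 5. In cells without Cd3 the ratio of Tyrobp had the opposite sign, with 2816 and 2318 cpm and a log2 ratio of 0.28 (0.17 to 0.39), and Hcst was short of 2-fold (587 and 1087 cpm). The Ly49 genes Klra8 (272 and 847 cpm), Klra7 (301 and 626 cpm) and Klra1 (46.1 and 101 cpm) were lower, while Klra6 was higher (42.4 and 13.5 cpm). Members of that family are near copies, and how shared reads were counted is not given in the sources used here. Klrb1b (42.0 and 137 cpm), Klri2 (65.2 and 237 cpm), Cd244 (25.1 and 67.6 cpm) and the kinase gene Txk (102 and 374 cpm) were lower too. Cd160 (88.9 and 31.5 cpm), Cd226 (47.4 and 6.76 cpm) and the CD3 zeta chain gene Cd247 (133 and 60.8 cpm) were higher. In cells without Cd3, Klra6 (34.9 and 7.41 cpm), Cd160 (107 and 32.1 cpm) and Cd226 (47.4 and 4.94 cpm) were also called higher, while Cd247 (68.4 and 64.2 cpm) and each of the genes called lower fell short of 2-fold or, for Tyrobp, had the opposite sign. Fcer1g, another signalling adaptor, stood at 1176 and 1766 cpm.

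Of 11 transcription factor genes, 0 were higher and 5 lower: Eomes (84.4 and 255 cpm at days 7 and 5) and Tbx21 (69.8 and 142 cpm), which drive NK cell development, and Runx3 (97.2 and 277 cpm), Irf8 (249 and 601 cpm) and Gata3 (69.8 and 185 cpm). Their list median was -0.94. In cells without Cd3, Runx3 (130 and 282 cpm, log2 ratio -1.12, -1.53 to -0.71) and Gata3 (78.1 and 180 cpm) were at least 2-fold lower, while Eomes (148 and 252 cpm, -0.77, -1.17 to -0.36) was short of it, and Tbx21 (106 and 143 cpm) and Irf8 (554 and 628 cpm) had intervals that held 0. Of 10 cytokine genes and receptors tested, 2 were higher, Il2ra (23.7 and 6.76 cpm) and Il7r (29.2 and 0 cpm), and 3 lower, the interleukin 18 receptor chains Il18r1 (44.2 and 124 cpm) and Il18rap (36.0 and 99.1 cpm) and Il12rb2 (6.39 and 36.0 cpm). Against a floor of 3 counts over the day 5 NK cells, the log2 ratio of Il7r was at least 2.11, and at least 0.18 in cells without Cd3, short of the call. Il2ra had 5 and 3 UMIs in those cells, and of the 3 lower genes Il12rb2 (14.0 and 32.1 cpm) was called there, with an interval that held 0, while Il18r1 and Il18rap were short of 2-fold. Il2rb, a chain of the interleukin 2 and 15 receptor, stood at 187 and 374 cpm, and Il2rg at 136 and 149 cpm.

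Of 8 effector cytokine genes, 2 were higher, Ltb (342 and 101 cpm at days 7 and 5) and Tnf (27.8 and 11.3 cpm), and 0 lower. Ccl5, a chemokine of cytotoxic cells, had 4576 and 6215 cpm, Ccl4 671 and 1045 cpm and Ccl3 263 and 295 cpm. Ltb was also called without Cd3 (296 and 106 cpm), where Tnf had 11 and 4 UMIs. Of 8 maturation and residence genes, 3 were higher. Ly6c2 (511 and 110 cpm) and the chemokine receptors Cxcr3 (113 and 6.76 cpm) and Cxcr6 (66.6 and 9.01 cpm) were higher. Itgam, an integrin of mature NK cells (8.21 and 65.3 cpm), was lower. These 4 genes were also called without Cd3, with Cxcr3 at 80.9 and 2.47 cpm and Itgam at 19.5 and 71.7 cpm. Of 5 ligand genes tested, Clec2d was lower (22.8 and 56.3 cpm, but short of 2-fold without Cd3, at 26.5 and 49.4 cpm), and the class I genes H2-D1 (2936 and 1969 cpm), H2-K1 (2261 and 2845 cpm) and H2-T23 (104 and 169 cpm) did not pass 2-fold.

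Across 29 pools of at least 50 cells, each 1 label at 1 day, the genes most like the mean of the 9 members were ranked by Pearson correlation of log2(cpm + 10). They were Klre1 (0.977), a lectin-like NK receptor, Ms4a4b (0.968), Cst7 (0.963), the cystatin of cytotoxic granules, Ptprcap (0.961), Klrc1 (0.961), the NKG2A chain that pairs with CD94, and Ctsw (0.958). Among the members themselves, each part of that mean, the values ran from 0.978 for Nkg7 to 0.827 for Klrd1 and 0.792 for Klrk1. The pools share libraries and depth, and the correlation describes likeness of pattern alone. Klre1 stood at 289 cpm in the day 7 NK/T cells, 487 in the day 5 NK cells and 102 in the Macrophages/APCs/T-cells, while Ms4a4b stood at 1025, 649 and 525 cpm.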

How the data were processed

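Per the submitters' processing notes, the tools were Cell Ranger 2, R 3.6.2 and Seurat 2.3.4, with the mouse build mm10. The authors deposited, for each of 4 days, UMI counts per gene and cell, values on a natural log scale, and cell labels with the mitochondrial fraction of each cell. The deposited natural log values equal ln(1 + 10000 × count / cell total), as checked on the files, and were used only as an alternative. The deposited mitochondrial fraction reached 19.0% to 20.0% a day. Another 8 columns of per-cell values were not used. Barcodes without a label (9 to 21 a day) stayed out of the sums. The counts as deposited were summed per label and day with Python 3.11.15, numpy 2.4.6, scipy 1.17.1 and pandas 2.3.3 and given as counts per 1000000 UMIs. UMI totals, median depths and labels are those of the files, no doublet caller was run, and whether doublets were removed before deposit is not given in the sources used here.

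With 1 matrix a day no test was made. Ratios were called at 2-fold with at least 20 UMIs over both sides, and cells were thinned to 1000 UMIs (seed 1). A count of 0 is given with the limit that 3 counts allow. The ratio, interval and call steps were tested on simulated data of independent counts, as the intervals assume. That simulation did not cover UMIs clustered in single cells. Alternatives were another scaling, other depths, other cell sets and leaving out cells. The 9 members and all lists were chosen with earlier results of these data known. Genes named beside the members were those called in the NK labels, up to 4 of each list with the highest level there, and the 6 most like the members in pattern; others were chosen after their values were seen. Promoter sequences are from RefSeq and gene positions from GENCODE. One gene of the maturation list is not reported here.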

Additional observations from a re-analysis of the deposited data

Results flagged for a closer look

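Nkg7 was counted in barcodes that carry no cell label at day 7, at 88.2 cpm (10 UMIs among the 113389 UMIs of 9 barcodes). The 14 unlabelled barcodes of day 0 had 0 UMIs of Nkg7, which allows up to 48.9 cpm. The unlabelled barcodes of day 5 had 3 UMIs of Nkg7 and those of day 2 had 0. Gzmb had 3 UMIs in the same 9 barcodes of day 7, at the limit that a count of 0 allows there.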

How the results depend on the processing

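No paired analysis was possible because each day had 1 matrix and no ratio had a test. For the 9 members and their sum, none of the alternatives reversed a ratio of at least 2-fold. Among the list genes, Tyrobp was called lower over all cells of the NK labels but had the opposite sign in cells without Cd3. All 9 members stayed highest in a label with NK or T in its name at days 5 and 7 under every alternative run for that count. At day 5 this count does not tell the NK cells from the Macrophages/APCs/T-cells. The summed level of the members in the NK/T cells of day 7 (6636 cpm) moved to 7987 with each cell weighted equally, 7426 without the 1% of cells with the most UMIs and 7794 without cells with 2 or more macrophage genes. For the Macrophages/APCs/T-cells (2710 cpm) these values were 2096, 2846 and 2563. The share of cells with 3 or more members depended on depth: at 500 UMIs it was 33.1% in the day 7 NK/T cells, 43.2% in the day 5 NK cells and 5.13% in the Macrophages/APCs/T-cells, and unthinned it was 77.5%, 84.1% and 14.4%. The summed log2 ratio of the NK labels, day 7 over day 5 (-0.55), was 0.32 with the Macrophages/APCs/T-cells added at day 5, -0.24 with each cell thinned, -0.31 without cells with macrophage genes, -0.39 without the 1% of cells with the most UMIs and 0.34 in cells with no Cd3 UMI. The count of members 2-fold lower there (1, Gzma) was 0 under each of these 5 settings. The count 2-fold higher (2) was 4 with the added label and 1 with at least 50 UMIs required. Scaling by the median of ratios takes the shift over all genes (log2 -0.57 at day 2 and -0.24 at day 7 over day 0) as 0, so the summed log2 ratio was 0.31 at day 2 over day 0 (-0.26 as reported on the cpm scale) and 3.22 at day 7 over day 0 (2.98). Members 2-fold higher at day 2 were then 2 in place of 1, as they were without the 1% of cells with the most UMIs. Without those cells, an alternative added after the data were seen, the NK/T cells of day 7 over all other cells had a summed log2 ratio of 6.62 (6.49). The cause of these moves was not tested.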
